A study of Homo sapiens with 36 samples.

Results

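The broad H3K27me3 domains of control cells are 427 autosomal regions in which H3K27me3 peaks formed an unbroken block of at least 15 kb. To find them, the peaks of both control replicates were merged wherever they overlapped, and a merged region was kept if it held a peak of each replicate and was 15 kb wide or wider. They were 4.62% of the 9234 autosomal regions with a peak of both control replicates. The domains were thus chosen by the H3K27me3 peaks of control cells, and their number, their widths and their control cover are descriptions only.

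The study profiled chromatin in DU145, a human prostate cancer line taken from a brain metastasis. Control cells carried a control hairpin (shCTR), and depleted cells carried shPHF19L#4, 1 hairpin against the long isoform of PHF19. Each ChIP-seq group used here had 2 replicates: H3K27me3 and MTF2 in both kinds of cells, and PHF19, EZH2 and SUZ12 in shCTR cells. Part of the chromatin was mixed with fly chromatin as a spike-in, but the deposited peak positions carry no spike-in scaling. No list gives its number of reads, and library depth is therefore unknown. Replicates of a group differed widely in what was called. The H3K27me3 lists of shCTR cells held 38997 autosomal peaks over 107.7 Mb in replicate 1 and 15962 over 30.4 Mb in replicate 2. Those of shPHF19L#4 cells held 34889 peaks over 96.4 Mb and 56460 over 158.5 Mb. The part of these differences in the results was not tested.

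H3K27me3 is the trimethyl mark that Polycomb repressive complex 2 (PRC2) places on histone H3, through its catalytic subunit EZH2 together with SUZ12, at genes that are kept silent. PHF19 and MTF2 are Polycomb-like proteins that join PRC2 and help it bind chromatin, and MTF2 binds DNA rich in unmethylated CG dinucleotides. Developmental transcription factor genes are the best known sites of the mark, and in differentiated and cancer cells it can also spread over long blocks.

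The sequences below show how different the DNA under these blocks was. Each is the 300 bp with the most CG dinucleotides, outside exons and untranslated regions, read on the plus strand of GRCh37 (hg19), with each CG in capitals. The first 4 come from EZH2 regions called in both replicates, in the domains of PAX2, CBX8, PAX7 and FOXB1. They are among the 5 domains with the longest EZH2 cover, ranked by the smaller of the 2 replicates. The PAX2 window (chr10:102499192-102499491) lies in an intron of that gene and holds 34 CG. The CBX8 window (chr17:77783888-77784187) lies between genes, 8706 bp from the CBX8 start, and holds 49 CG. The PAX7 window (chr1:18962921-18963220) is intronic and holds 34 CG, and the FOXB1 window (chr15:60289315-60289614), 7045 bp from the FOXB1 start, holds 30. The other 2 come from introns in 2 domains that are also among the 10 widest. They were taken in order of shCTR MTF2 cover, by the smaller of the 2 replicates. Only domains with no EZH2 or PHF19 region of both replicates were eligible. The 2 sets were thus chosen to differ in EZH2, and their contrast is an illustration only. The NPAS3 window (chr14:34159156-34159455) is the richest within the MTF2 regions of the widest domain, yet holds 12 CG. Windows were moved in steps of 10 bp. Over the whole domain, where the steps fell on other windows, the richest held 11. The ADAMTS12 window (chr5:33582496-33582795), also from MTF2 regions, holds 7. Wide domains were not all this poor: with exons and the rest of the domain included, the richest window held 16 CG in this ADAMTS12 domain and 51 in the PIP5K1B domain, also among the 10 widest.
PAX2: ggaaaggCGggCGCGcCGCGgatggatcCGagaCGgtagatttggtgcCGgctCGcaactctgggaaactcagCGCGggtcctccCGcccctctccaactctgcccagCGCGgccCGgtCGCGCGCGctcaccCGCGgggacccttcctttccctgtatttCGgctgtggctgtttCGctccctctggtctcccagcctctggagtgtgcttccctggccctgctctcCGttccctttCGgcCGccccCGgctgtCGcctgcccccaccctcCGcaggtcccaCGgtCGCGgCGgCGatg
CBX8: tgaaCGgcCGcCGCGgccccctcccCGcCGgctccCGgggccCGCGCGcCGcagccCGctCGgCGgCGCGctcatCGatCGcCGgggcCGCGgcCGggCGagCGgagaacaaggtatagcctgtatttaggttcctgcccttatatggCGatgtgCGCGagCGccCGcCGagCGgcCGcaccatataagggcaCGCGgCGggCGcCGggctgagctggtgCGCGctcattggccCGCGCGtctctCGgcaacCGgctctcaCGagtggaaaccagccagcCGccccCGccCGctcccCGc
PAX7: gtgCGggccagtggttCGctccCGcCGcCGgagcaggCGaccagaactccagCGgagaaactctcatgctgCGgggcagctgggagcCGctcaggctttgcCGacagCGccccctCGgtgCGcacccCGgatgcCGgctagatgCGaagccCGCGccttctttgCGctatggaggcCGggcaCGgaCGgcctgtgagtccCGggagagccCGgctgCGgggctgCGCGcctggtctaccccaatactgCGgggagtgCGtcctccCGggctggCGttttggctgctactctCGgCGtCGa
FOXB1: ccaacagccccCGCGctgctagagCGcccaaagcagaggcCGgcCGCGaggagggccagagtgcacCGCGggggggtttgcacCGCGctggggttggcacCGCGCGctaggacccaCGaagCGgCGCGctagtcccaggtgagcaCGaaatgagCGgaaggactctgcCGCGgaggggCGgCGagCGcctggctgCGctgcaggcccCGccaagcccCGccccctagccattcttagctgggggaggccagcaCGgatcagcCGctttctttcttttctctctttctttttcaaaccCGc
NPAS3: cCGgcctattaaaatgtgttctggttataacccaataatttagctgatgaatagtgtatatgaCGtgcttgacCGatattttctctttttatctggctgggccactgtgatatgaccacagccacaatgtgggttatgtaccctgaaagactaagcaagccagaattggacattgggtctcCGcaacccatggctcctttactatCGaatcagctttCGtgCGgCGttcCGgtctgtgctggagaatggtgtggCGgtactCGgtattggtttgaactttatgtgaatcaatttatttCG
ADAMTS12: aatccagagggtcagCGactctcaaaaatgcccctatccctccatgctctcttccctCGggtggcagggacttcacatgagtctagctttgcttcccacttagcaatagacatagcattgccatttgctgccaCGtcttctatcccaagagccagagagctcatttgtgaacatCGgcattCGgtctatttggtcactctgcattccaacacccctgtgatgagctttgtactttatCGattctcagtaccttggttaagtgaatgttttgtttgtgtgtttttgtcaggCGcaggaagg
Counted over whole regions, exons included, a window of at least 20 CG was found in 94.2% of the 86 EZH2 regions inside domains, beside 96.8% of all 494 EZH2 regions. Among the 271 shCTR MTF2 regions inside domains the share was 46.1%, beside 75.7% of the 1179 MTF2 regions outside them. It was 39.1% over the 427 whole domains and 23.3% over all H3K27me3 regions, which are shorter (median 4419 bp).

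Together the domains spanned 9.28 Mb, which is 17.4% of the length of all H3K27me3 regions and 0.322% of the autosomes. Their median width was 19086 bp, from 15009 to 81436 bp. At 20 kb or more there were 178 domains, at 30 kb or more 47, and at 50 kb or more 8. The widths fall off steeply above 15 kb, as the plot of widths shows. Replicate 1 peaks covered 98.7% of the domain length and replicate 2 peaks 61.6%. In 299 domains (70.0%) there was a single replicate 1 peak, and the median number of replicate 2 peaks per domain was 4. Alone, replicate 2 had 24 peaks of 15 kb or more and replicate 1 had 368. The 3 domains just inside the limit were chr5:10809956-10824964 (15009 bp), chr15:70176227-70191240 (15014 bp) and chr7:104474424-104489447 (15024 bp, in the gene body of LHFPL3). The 3 regions just outside it were chr7:132114812-132129809 (14998 bp, in PLXNA4), chr7:30711403-30726368 (14966 bp, at the start of CRHR2) and chr14:76839342-76854307 (14966 bp, at the start of ESRRB).

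**Figure D1:**
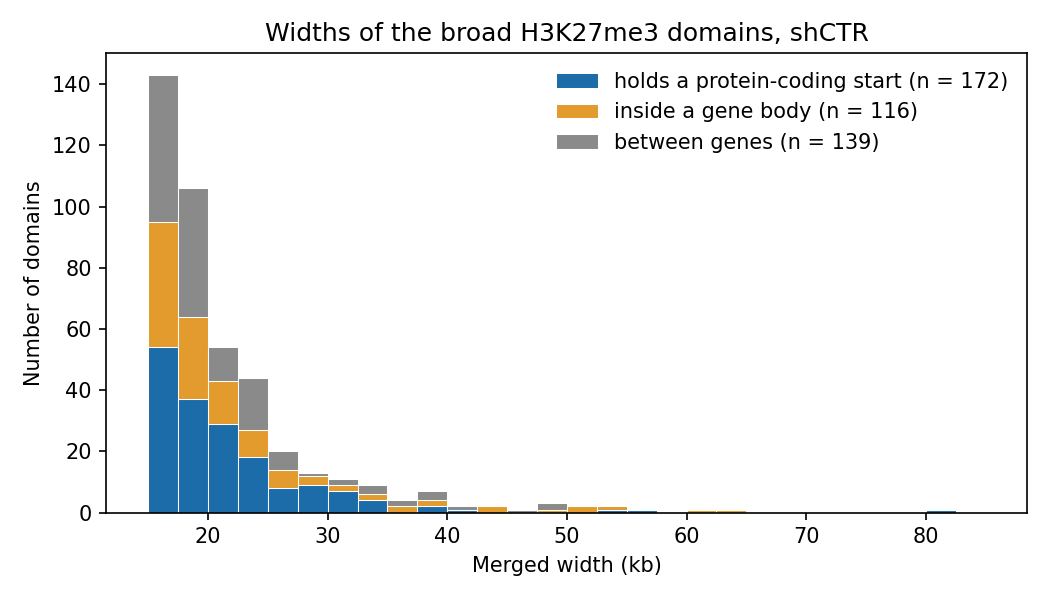
Number of domains by merged width (kb), stacked by whether a domain holds a protein-coding start, lies in a gene body or lies between genes. The median is 19.1 kb, and 8 of the 427 domains reach 50 kb.

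The widest domain, chr14:34134315-34215750, covered 81436 bp of NPAS3, which encodes a bHLH-PAS transcription factor of the brain. The next in width, of 64375 and 60932 bp, lay in the body of the same gene. After them came domains over MAGI2, a synaptic scaffold gene (56603 bp), and PIP5K1B, a lipid kinase gene (53422 bp). RYR3, which encodes a calcium release channel, held a pair of 53196 and 51121 bp. The rest of the 10 widest lay over the secreted protease gene ADAMTS12 (51504 bp), the B cell transcription factor gene EBF1 (49133 bp) and a stretch of chromosome 8 that reaches into XKR6 (48947 bp). Most of these wide blocks lay inside long genes.

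By position, 172 domains (40.3%) held the start of a protein-coding gene. Another 116 held no start and lay for at least 50% of their length in a gene body, and 139 lay mostly between genes. The share with a start was lower in narrower regions, at 25.8% from 10 to 15 kb, 23.9% from 5 to 10 kb, 15.2% from 2 to 5 kb and 3.26% under 2 kb. Counted per length, 19.1 genes started per Mb of domain. This was fewer than in the narrower classes, with 23.1, 34.6, 45.1 and 20.9 in the same order, and more than the 6.67 per Mb of all autosomes. In all, 177 of 19229 protein-coding genes (0.92%) started in a domain, and 8.63% started in any H3K27me3 region of both replicates. The count rests on replicate 1: without it, 15 genes started in a domain, and without replicate 2, 145. A single gene started in 163 of the domains, 2 genes in 6 domains and 3 genes in 3 domains. Gene bodies of 249 genes were touched, and 109 domains held the start of a long noncoding RNA, 57 of them with no protein-coding start.

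Several lists of developmental transcription factor genes were counted among the 177 genes, which are 0.92% of all protein-coding genes. Of 134 homeobox genes outside the HOX clusters, 19 (14.2%) started in a domain and 63 in any H3K27me3 region. The 12 in the widest domains included PAX2, EMX1, PAX7, NKX2-3, BARX1, LHX5, NKX2-2 and DLX5, which pattern kidney, brain, muscle and other organs. From 5 GATA factor genes, GATA3 and GATA4 started in a domain. Of a list of 30 bHLH genes 5 did, namely NEUROG1, NEUROG3, NEUROD2, HAND1 and OLIG2. Forkhead genes gave 3 of 43 (FOXF2, FOXF1 and FOXB1), and developmental zinc finger genes 5 of 71 (SP8, BCL11A, BCL11B, GLI3 and INSM1). GLI3 was also the 1 of 10 Hedgehog pathway genes. SOX2 was the 1 of 18 SOX genes (5.56%), in a domain of 40157 bp. In any H3K27me3 region, the GATA, bHLH, forkhead, zinc finger, Hedgehog and SOX lists had 3, 14, 16, 22, 5 and 7 genes. Of 27 genes for PRC2 and PRC1 subunits, 1 started in a domain: CBX8, whose product reads H3K27me3 as part of PRC1.

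The remaining lists are given beside the 0.92% of all genes. None of 38 genes for WNT ligands and receptors, 36 for BMP and TGF-beta ligands and antagonists or 20 for FGF ligands started in one, while 14, 14 and 8 of them started in some H3K27me3 region. T-box genes gave 0 of 15 in a domain and 3 in a region, clustered protocadherins 0 of 53 and 1. Ribosomal protein genes gave 0 of 76 in a domain and 1 in a region, and 496 ZNF genes gave 0 and 8. The 7 cyclin dependent kinase inhibitor genes gave 0 and 0. Among genes of differentiated functions, 5 of 92 potassium channel genes (5.43%) started in a domain, as did 8 of 413 olfactory receptor genes (1.94%), 6 of 323 solute carrier genes (1.86%) and 1 of 55 keratin genes (KRT76, 1.82%). In any region these lists had 32, 54, 48 and 8 genes.

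The HOX clusters, a textbook site of this mark, held 1 domain. It covered EVX2, HOXD13 and HOXD12, at chr2:176948261-176964890 (16630 bp), so 2 of 39 HOX genes started in a domain and 8 in any region. Shares of the HOXD cluster covered by H3K27me3 in shCTR cells were 38.2% in replicate 1 and 10.2% in replicate 2. HOXA had 5.63% and 2.68%, HOXB 3.82% and 1.56%, and HOXC 11.7% and 6.39%, with widest regions of 5829, 5341 and 5996 bp. Marker genes lay mostly outside the domains. The starts of the epithelial genes KRT8, KRT18 and KRT19 lay in no H3K27me3 peak of either shCTR list, and neither did those of VIM, the housekeeping genes GAPDH, ACTB and RPLP0, or the prostate gene KLK3. The same held for PTPRC and CDH5, which mark blood and vessel cells. EPCAM and CDH1 each started in a peak of shCTR replicate 2 alone. The prostate genes KLK2 and TMPRSS2 and the neural gene NEUROD1 started in regions of 11870, 6747 and 7714 bp, below the 15 kb limit.

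Many domains came in runs along the chromosome. With gaps of up to 100 kb joined, 213 domains had a neighbour, and 29 runs of 3 or more held 115 domains (26.9%). The longest run, of 9 domains, covered 55.9% of chr1:152867369-153184265 in the epidermal differentiation complex. In it started IVL, SPRR4, SPRR1A, SPRR3, SPRR1B, SPRR2D and SPRR2G, which encode proteins of the cornified envelope of skin, and LELP1. Of those 9 domains, 1 had an EZH2 region, 1 a PHF19 region and 2 an MTF2 region in shCTR cells. Clustered gene families also gave runs at CEACAM21 and CEACAM7 (5 domains), at the olfactory receptor genes OR6X1 and OR6M1 (4) and OR8B12 and OR8A1 (4), and at BPIFA2, BPIFA3 and BPIFA1 (3). Other runs lay along long genes. A run of 6 domains covered 55.0% of ADAMTS12. A run of 5 touched SMOC1 and the sodium-calcium exchanger gene SLC8A3, which had 71.0% of its length in 4 domains. TRPM3, a cation channel gene, was crossed by 9 domains and the receptor kinase gene ALK by 7. A run of 7 on chromosome 7 overlapped no protein-coding gene. These runs were chosen after their values were seen. Density differed between chromosomes, from 4.76 domains per 10 Mb on chromosome 20 and 2.98 on chromosome 14 to 0.174 on chromosome 13, beside 1.48 over all autosomes.

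Protein regions inside the domains were counted where both replicates had a peak. A region called in both shCTR replicates was found for PHF19 in 92 domains (21.5%), beside 7.3% of all H3K27me3 regions. EZH2 had one in 75 domains (17.6%, beside 5.04%) and SUZ12 in 12 (2.81%, beside 0.65%). With scores of at least 100 in the lists, the EZH2 share fell to 9.13%, so the split by EZH2 used throughout depends on that limit. For MTF2 the count was 193 domains (45.2%, beside 12.9%) in shCTR cells and 278 (65.1%, beside 24.3%) in shPHF19L#4 cells. Wide regions meet a peak more easily, so the same was counted per length. Domains held 1.21 PHF19 and 0.926 EZH2 regions per 100 kb, against 1.36 and 0.904 in H3K27me3 regions under 15 kb. MTF2 gave 2.93 against 2.32 in shCTR cells, and 4.82 against 4.60 in shPHF19L#4 cells. Per 100 kb the domains were thus close to the narrower regions, slightly lower for PHF19 and higher for the others. As a share of length, EZH2 regions covered 4.64% of the domains and 2.96% of the narrower regions, PHF19 5.20% and 3.96%, and MTF2 in shCTR cells 14.9% and 8.32%. The plot by width class takes all domains as 1 class. Shares of regions rose with each class for each protein plotted, while the length covered by PHF19 and EZH2 changed less above 5 kb. Within the domains, the shares from 20 to 30 kb and at 30 kb or more were 30.5% and 19.1% for PHF19. They were 22.9% and 21.3% for EZH2, and 57.3% and 72.3% for MTF2 in shCTR cells.

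**Figure D2:**
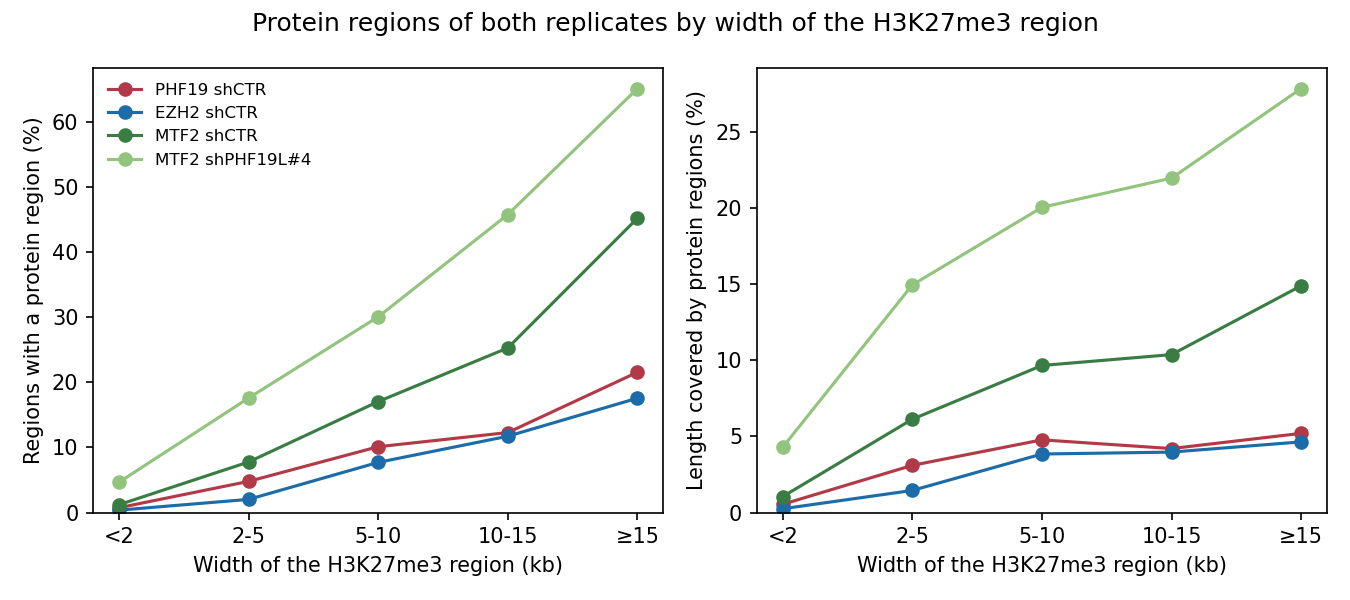
Share of H3K27me3 regions with a protein region of both replicates (left, %) and share of their length covered (right, %), by width of the H3K27me3 region (kb). In the domains (15 kb or more) the shares of regions are 21.5% for PHF19, 17.6% for EZH2, and 45.2% and 65.1% for MTF2 in shCTR and shPHF19L#4 cells.

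The counts depended strongly on the replicate. PHF19 peaks met 24.6% of the domains in replicate 1, a list of 1066 autosomal peaks, and 77.0% in replicate 2, a list of 14184. EZH2 gave 37.5% and 26.5%, and SUZ12 13.6% and 7.73%. MTF2 gave 49.6% and 93.7% in shCTR cells and 67.2% and 97.9% in shPHF19L#4 cells. For PHF19 and MTF2, the regions of both replicates met nearly as many domains as the smaller list did.

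The proteins overlapped in their choice of domains. EZH2 and PHF19 shared 57 domains, which is 76% of the EZH2 domains and 62.0% of the PHF19 domains. MTF2 in shCTR cells was found in 70 of the 75 EZH2 domains. Domains without EZH2 had PHF19 in 9.94% and MTF2 in 34.9%. These overlaps are given for the domains only, without the same overlap over all H3K27me3 regions, and are not shown to be particular to them. All 12 domains with SUZ12 also had EZH2: those of PAX7, EMX1, SOX2, FSTL4, IGF2BP3, LHX2, NTNG2, GATA3, PAX2, CCND2, FOXB1 and CBX8, a count named in full after it was seen. PHF19, EZH2 and MTF2 met in 56 domains, 51 of which held a protein-coding start. MTF2 without PHF19 or EZH2 was found in 98 domains, of which 29 held a start. In 219 domains (51.3%) none of these 3 proteins had a region of both shCTR replicates, and 55 of those held a start. These are not domains free of the proteins, since MTF2 peaks of shCTR replicate 2 alone met 93.7% of all domains.

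Position within genes separated the domains further. Among domains with a start, 43.0% had a PHF19 region, 38.4% an EZH2 region and 63.4% an MTF2 region in shCTR cells. In gene bodies the shares were 4.31%, 1.72% and 32.8%, and between genes 9.35%, 5.04% and 33.1%. MTF2 regions were thus called in many domains away from starts, where EZH2 and PHF19 regions were rare. The plot of length by position shows the same contrast: EZH2 covered 10.5% of the length of start domains, 0.334% in gene bodies and 1.03% between genes, and MTF2 24.7%, 8.18% and 8.29%. Over all autosomes MTF2 in shCTR cells also had more regions of both replicates, 1450 against 494 for EZH2 and 792 for PHF19. The part of these list sizes in the difference between the proteins was not tested. Narrower H3K27me3 regions with a start had fewer EZH2 calls per region (19.8%) but more per length, at 3.34 per 100 kb against 2.05 in start domains. The contrast by start was not particular to the domains. Under 15 kb, regions with a start had PHF19 in 26.7% and MTF2 in shCTR cells in 41.8%. Those without a start had PHF19 in 2.38%, EZH2 in 1.18% and MTF2 in 4.95%.

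**Figure D3:**
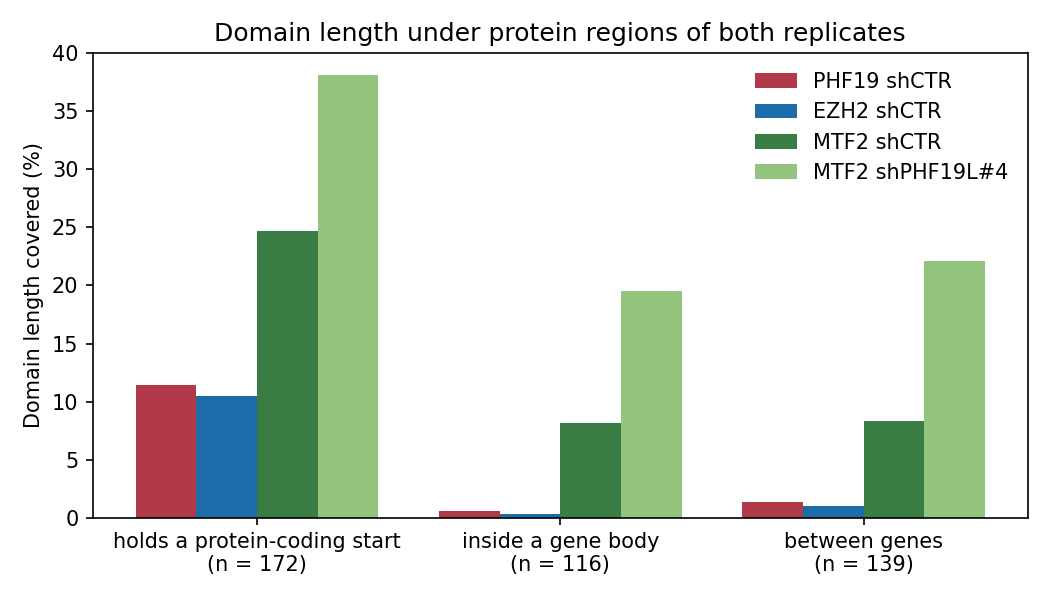
Share of domain length (%) under protein regions of both replicates, for domains with a protein-coding start (n = 172), in a gene body (n = 116) and between genes (n = 139). In start domains EZH2 covers 10.5% and MTF2 in shCTR cells 24.7%, against 0.334% and 8.18% in gene bodies.

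By the smaller EZH2 cover of the 2 replicates, the first 5 domains were those of PAX2, CBX8, PAX7, FOXB1 and SP8. At PAX2 (chr10:102495298-102529067) EZH2 peaks covered 17764 bp in replicate 1 and 14204 bp in replicate 2 of a 33770 bp domain. CBX8 (chr17:77771408-77791578) had 15473 and 13581 bp of 20171, and its PHF19 peaks 14225 and 15848 bp. For PAX7, a muscle and neural crest regulator, EZH2 peaks covered 12029 and 14536 bp of 22156. FOXB1, a forkhead gene of the developing brain, had 12927 and 11857 bp of 23720, and SP8, a zinc finger gene of the limb bud, 11856 and 12508 bp of 27212. These 5 domains were chosen by their EZH2 cover in both lists, so its length is a description only. Their MTF2 regions covered 44.9 to 88.6% of the length in shCTR cells.

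The widest NPAS3 domain gave different values in each EZH2 list. There, EZH2 peaks covered 67141 bp in replicate 1 and 0 bp in replicate 2, and SUZ12 peaks 53553 and 0 bp. MTF2 peaks covered 52999 and 44419 bp in shCTR cells and 58607 and 65747 bp in shPHF19L#4 cells. Its H3K27me3 cover was 100% in shCTR replicate 1 and 2.28% in replicate 2. By the smaller of the 2 shCTR replicates this is the domain with the most MTF2 cover, and it held 8.62 CG per kb. The 5 domains over NPAS3 were not alike: CG density ran from 7.65 to 22.6 per kb, and 1 of the 5 had an EZH2 region of both replicates. That was the adjoining domain of 64375 bp, where the EZH2 peaks covered 38193 and 4215 bp, and MTF2 29360 and 49303 bp in shCTR cells. SOX2, a stem cell factor gene, was the only domain outside NPAS3 besides PAX2 among the 5 with the most MTF2 cover by the smaller of the 2 replicates, with 20434 and 23003 bp.

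Base composition followed the proteins. The domains held 44.7% G and C and 13.4 CG per kb, beside 41.0% and 9.97 over the autosomes and 15.7 CG per kb in the 2 to 5 kb regions. Domains with an EZH2 region held 25.1 CG per kb and those without 10.8. Within the domains that held a start the values were 25.9 with EZH2 and 13.4 without. MTF2 domains with neither an EZH2 nor a PHF19 region held 11.0 CG per kb. Domains where none of the 3 proteins had a region of both shCTR replicates held 9.60. The plot of CG density shows these groups, with the last near the level of all autosomes. A 300 bp window of 20 CG or more, counted in the same way, was present in 93.3% of EZH2 domains, 35.7% of the MTF2 domains without EZH2 or PHF19, and 15.5% of the domains with none of the 3. Over the 427 domains, which share 1 genome sequence and the same lists, Spearman's rho of CG density with the share covered was 0.504 for EZH2, 0.538 for PHF19 and 0.524 for MTF2 in shCTR cells. Width and CG density had a rho of -0.007.

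**Figure D4:**
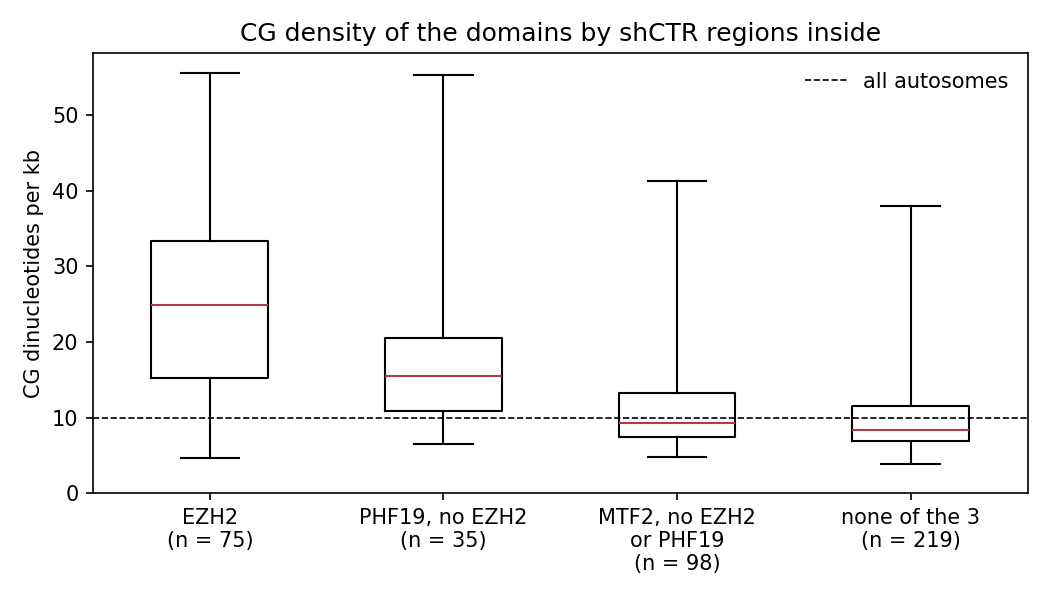
CG dinucleotides per kb in domains grouped by regions called in both shCTR replicates: with EZH2, with PHF19 but no EZH2, with MTF2 alone, or with none of the 3. Boxes show quartiles with the median in red, whiskers reach the lowest and highest domain, and medians run from 24.9 with EZH2 to 8.32 with none, against 9.97 over all autosomes (dashed).

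At their midpoints, MTF2 regions inside domains held a median of 5 CG in 300 bp, against 19 in MTF2 regions outside domains. Where the domain also had EZH2 the median was 14.5, and where it had none it was 3. The domains of the printed NPAS3 and ADAMTS12 windows had no EZH2 region of both replicates and belong to the second group. For EZH2 regions the midpoint medians were 18.5 inside domains and 25 outside.

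In shPHF19L#4 cells MTF2 regions were called in more of the domains. Both conditions had one in 187 domains, shPHF19L#4 cells alone in 91 and shCTR cells alone in 6. Over all H3K27me3 regions the share with one was also higher, at 24.3% against 12.9%, so the difference was not particular to the domains. The 91 were spread over all positions, with 28 domains holding a start, 26 in gene bodies and 37 between genes. MTF2 peaks covered 1066040 and 3252422 bp of the domains in the 2 shCTR lists and 1827069 and 4930086 bp in the shPHF19L#4 lists. Each shPHF19L#4 list was above the shCTR list of the same replicate number, but the lists of 1 condition differed more than that. Across all autosomes the shPHF19L#4 lists were also longer, at 10.9 and 58.7 Mb against 5.93 and 46.4 Mb. Whether this list size accounts for the difference in the domains was not tested.

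H3K27me3 peaks of shPHF19L#4 cells covered 7569905 bp (81.5%) of the domains in replicate 1 and 8247368 bp (88.8%) in replicate 2. Relative to the shCTR list of the same replicate number the covered length was 0.826 and 1.44, so the replicates went in opposite directions. The shCTR lists that set the domains covered 98.7% and 61.6% of them, which left the replicate 1 ratio almost no room above 1. With regions chosen by the same rule on the shPHF19L#4 lists instead, the ratios were 1.01 and 2.45, both above 1. Regions under 15 kb gave 0.854 and 1.94. The ratios over the domains and the narrower regions have the direction of the list totals, while the 1.01 does not. No change of H3K27me3 in the domains can be read from these ratios. A peak was present in 387 domains (90.6%) in replicate 1, beside 91.3% of all regions, and in 395 (92.5%) in replicate 2, beside 98.1%. The median domain was covered to 96.6% and 99.7%, and 219 domains (51.3%) were covered to at least 95% in both lists. Applied to the shPHF19L#4 lists, the same rule gave 1085 regions of 15 kb or more among 22035. They overlapped 355 of the 427 domains (83.1%), and 346 of the 1085 (31.9%) overlapped a domain.

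**Figure D5:**
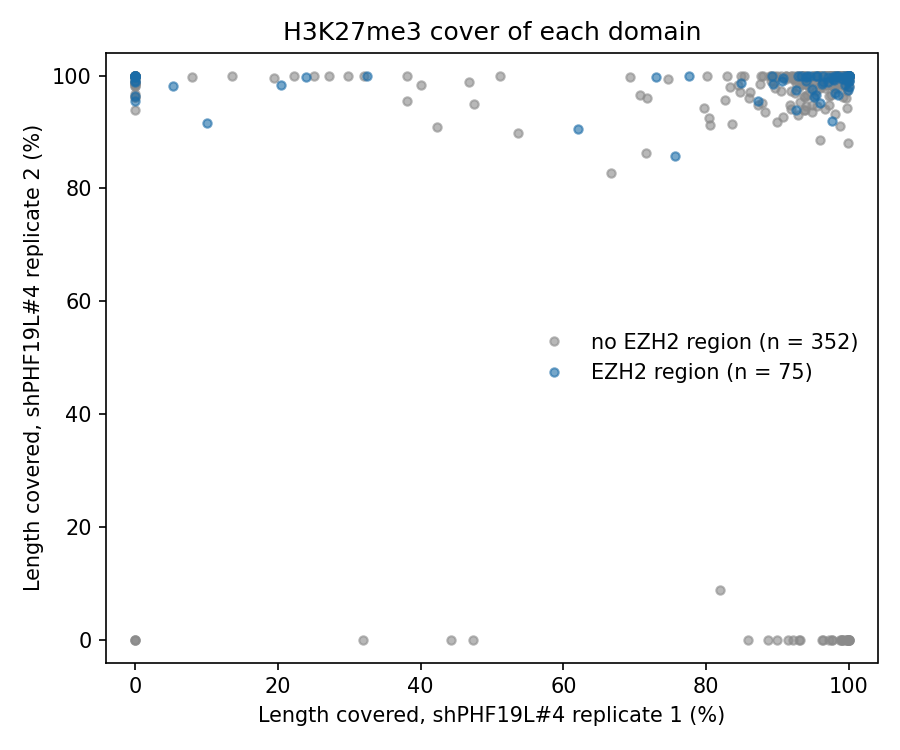
Share of each domain (%) covered by H3K27me3 peaks in shPHF19L#4 replicate 1 (horizontal) and replicate 2 (vertical), 1 point per domain, with domains that have an EZH2 region in blue. At least 95% is covered in 247 domains in replicate 1 and 359 in replicate 2, and 40 domains are at 0 in replicate 1, 32 in replicate 2 and 3 in both.

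Cover ranged from none to full. In replicate 1, 40 domains had no peak, 8 were covered to under 25%, 132 to between 25 and 95%, and 247 to at least 95%. In replicate 2 the counts were 32, 1, 35 and 359. A cover of 0 means that the list holds no peak there, and the lists alone do not show whether the mark was absent. Of the domains without a peak in a list, 36 were at 0 in replicate 1 and at least 95% covered in replicate 2, 19 were the reverse, and 3 were at 0 in both. Those 3 were the widest NPAS3 domain, the domain of SPRR4 and SPRR1A (chr1:152936671-152959628, 22958 bp) and 1 in the body of the semaphorin receptor gene PLXNA4 (chr7:132147667-132167512, 19846 bp). Next lowest were a domain of 43075 bp in ADAMTS12, at 31.9% and 0%, and that of SPRR2D, at 44.3% and 0%. At the other end, many domains tied at 100% in both lists. The 5 widest of these were at the starts of ADAMTS12, KCTD1 and EMX1, between genes on chromosome 11 (24586 bp) and in LHFPL3 (22152 bp).

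Of the 40 domains at 0 in replicate 1, 19 (47.5%) held a start, near the 39.5% of the other 387. An EZH2 region was in 11 of the 40 and in 64 of the 387, and the median was 15.6 CG per kb against 9.58. They included the domains of NKX2-2, NKX2-3, GATA4, FOXF1 and NEUROD2, each covered to over 95% in replicate 2. SOX2 was covered to 24.0% and 99.7%. Of the 32 at 0 in replicate 2, 9 (28.1%) held a start, against 41.3% of the other 395. An EZH2 region was in 0 of the 32 and in 75 of the 395, and the median was 7.01 CG per kb against 10.6. The domains of IVL and SPRR3, named above, were among these. Domains with EZH2 were accordingly covered to 71.9% in replicate 1 and 98.6% in replicate 2, and those without to 83.7% and 86.6%. The 47 domains of 30 kb or more were covered to 76.9% and 73.4%.

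The score of the peaks moved with these gaps. Domains at 0 in shPHF19L#4 replicate 1 had a median highest score of 390 in shCTR replicate 1, against 794 in the others, but of 622 against 429 in shCTR replicate 2 and 2575 against 1739 in shPHF19L#4 replicate 2. Domains at 0 in shPHF19L#4 replicate 2 had 872 against 714 in shCTR replicate 1 and 254 against 460 in shCTR replicate 2. The median highest score in shCTR cells was thus lower in the list of the same replicate number and higher in the other. This holds for the score only, and its cause was not tested. The stretch without a peak that contains a domain at 0 had a median of 38045 bp in replicate 1 and 54712.5 bp in replicate 2, while the nearest peak lay a median of 1356.5 and 2232.5 bp away. Wide peaks with no counterpart were also seen between the replicates of 1 condition. Of the 368 shCTR replicate 1 peaks of 15 kb or more, 16 (4.35%) met no peak of shCTR replicate 2, and of the 24 in shCTR replicate 2, 5 (20.8%) met none of replicate 1. Of the same 368, 45 (12.2%) met none of shPHF19L#4 replicate 1 and 35 (9.51%) none of replicate 2. Of 313 such peaks in shPHF19L#4 replicate 1, 31 (9.90%) met none of shPHF19L#4 replicate 2. Of 922 in replicate 2, 63 (6.83%) met none of shPHF19L#4 replicate 1 and 42 (4.56%) none of shCTR replicate 1. The cause was not tested.

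Along the run in the epidermal differentiation complex, the share of domain length covered was 96.5% and 76.7% in the shCTR lists and 78.5% and 45.2% in the shPHF19L#4 lists. The 3 adjoining NPAS3 domains had 100% and 19.4% in shCTR cells and 3.67% and 49.5% in shPHF19L#4 cells. For the 4 domains at PIP5K1B, all lists were near full cover, with 98.3% and 92.0% in shCTR and 98.1% and 99.9% in shPHF19L#4 cells. The EVX2, HOXD13 and HOXD12 domain had 99.9% and 69.3%, then 100% and 100%.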

How the data were processed

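ChIP-seq peak lists of DU145 cells were used as deposited, 14 lists in all, with 2 replicates per group. Per the labels, the authors aligned unique reads with Bowtie to hg19, or to hg19 and dm3 together where fly chromatin had been added, and called peaks in each replicate with MACS against a control, with versions not given. The score column of the deposited lists is the score the authors' peak caller gave each peak. The first PHF19 replicate holds a tag number in its place, and the first MTF2 replicates hold positions only. No read totals are given, so depth and the precision it sets are unknown. The authors' own DiffBind comparisons, the inputs, PHF19, EZH2 and SUZ12 in shPHF19L#4 cells and the RNA-seq were not analysed here, nor were the sex chromosomes. PECAM1 was not analysed here because no gene of that symbol was found in the annotation.

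Peaks of both replicates were merged where they overlapped by at least 1 bp, and regions with a peak of each were kept, for H3K27me3 and for each protein. Domains were those of 15 kb or more. A protein region was counted in a domain when they overlapped by at least 1 bp. Genes, transcript starts and exons came from GENCODE release 44 on GRCh37, and bases from the same build. A protein-coding gene started in a domain when any of its protein-coding transcripts began there, alternative starts included. For a long noncoding RNA any transcript counted. By the 5' end of the gene record alone, 151 protein-coding genes started in a domain in place of 177. Windows of 300 bp were moved in steps of 10 bp. Domains at most 100 kb apart formed a run. Values were given per list and compared without tests, with percentages over all H3K27me3 regions or genes beside them. Named domains were the 10 widest, those at HOX clusters, the 5 with the most EZH2 and MTF2 cover (smaller of the 2 replicates), the 5 with the largest and smallest cover in shPHF19L#4 cells (smaller and larger of the 2, ties by width), and 3 on each side of the width limit. Named genes were up to 8 that start in each, and up to 12 per gene list. The domains and gene lists were chosen with earlier results of these data known. Alternatives were minimum widths of 10 and 20 kb, a score of at least 100, joining peaks up to 1 kb apart, cover of at least 50% by each replicate, midpoints in place of overlap, other gene definitions, domains chosen on the shPHF19L#4 lists, and leaving out each replicate. Python 3.11.15, numpy 2.4.6, scipy 1.17.1, pysam 0.24.0 and matplotlib 3.10.9 were used. The interval functions were tested on simulated data.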

Additional observations from a re-analysis of the deposited data

How the results depend on the processing

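Of 55 alternatives, 29 left a value within its margin, 25 moved it and 1 reversed it. A count was taken as kept within 1.5 times its value, a percentage within its 95% binomial interval, which takes domains as independent, and a ratio within the spread between replicates (SD 0.436). With a minimum width of 10 kb there were 1135 domains, with PHF19 in 15.8%, EZH2 in 13.9%, MTF2 in 32.8% in shCTR and 53.0% in shPHF19L#4 cells, and 366 genes. At 20 kb there were 178 domains, with PHF19 in 27.5%, EZH2 in 22.5%, SUZ12 in 5.62%, MTF2 in 61.2% and 78.7%, and 80 genes. Joining peaks up to 1 kb apart gave 1136 domains. The rule itself admits more or fewer regions at these limits, and why the percentages moved was not tested. With scores of at least 100, EZH2 was in 9.13% of domains, and the cause was not tested. Domains chosen on the shPHF19L#4 lists gave ratios of covered length of 1.01 (reversed) and 2.45. On the shCTR choice the replicate 1 ratio had almost no room above 1, and the part of the choice of list in this was not tested. Leaving out 1 replicate gave 24 to 368 domains and 15 to 145 genes starting in them, the lower values without replicate 1. For the percentages it gave 24.6 to 77.0 for PHF19, 26.5 to 37.5 for EZH2, 7.73 to 13.6 for SUZ12, 49.6 to 93.7 for MTF2 in shCTR and 67.2 to 97.9 in shPHF19L#4 cells. For PHF19 and MTF2 the higher value came without replicate 1, the smaller list. After seeing the data, 2 more alternatives were added: without the 5 domains that overlap NPAS3 the ratios were 0.840 and 1.44, and over domains with a peak in the shPHF19L#4 list 0.925 and 1.58. No paired analysis was possible because the values come from no test, so there was no fit in which replicates could be paired. The ratios set lists of the same replicate number side by side as a description. With 2 lists against 2, an exact permutation test can give no p below 1 in 3, and none was run.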
